A study of Mus musculus with 18 samples.

Results

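The libraries described here are 6 of the 18 in the series: 3 from RAW264.7 cells given Poly(I:C) (PIC), a synthetic double-stranded RNA, and 3 from RAW264.7 cells given tert-butylhydroquinone (TBHQ) before PIC. They were taken by the names of the count columns, and PIC + TBHQ was compared directly with PIC over all genes. Cells of the PIC group received PIC at 20 µg/mL for 12 h. Cells of the PIC + TBHQ group received TBHQ at 5 µM for 4 h and then PIC at the same dose for 12 h. RAW264.7 is a transformed, dividing mouse macrophage line, so both groups are 1 established line, named wild type in the columns, and share the PIC dose and stimulation time. The methods call the 3 libraries of a group biological replicates but do not say whether they came from separate experiments. The SE and adjusted p values below may therefore measure the spread of parallel cultures only. Untreated cells, cells harvested after 4 h of TBHQ alone, and cells given LPS at 0.1 µg/mL for 12 h with or without the same TBHQ pretreatment make up the other 12 libraries, and their values stand beside those of PIC + TBHQ and PIC where they serve as a reference. The comparison asks how TBHQ, given first, changes the transcriptome of macrophages answering a mimic of viral RNA.

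TBHQ is an electrophile former that modifies Keap1, the adaptor that otherwise sends the transcription factor Nrf2 (gene Nfe2l2) to the proteasome, and released Nrf2 raises genes of glutathione, thioredoxin, NADPH and xenobiotic metabolism through antioxidant response elements. Double-stranded RNA is sensed by Tlr3 in endosomes and by the helicases RIG-I (gene Ddx58) and MDA5 (gene Ifih1) in the cytosol, which activate IRF and NF-κB factors. The interferon made in this way acts back through JAK kinases and STAT factors on a large set of antiviral genes, while NF-κB drives cytokines, chemokines and its own inhibitors.

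The authors deposited raw counts of fragments per gene and FPKM. The deposited FPKM equal counts over gene length and library total times a further factor for each library, which was 1.11, 1.12 and 1.11 with PIC and 1.06, 1.05 and 1.05 with PIC + TBHQ. Levels below are these FPKM, and differences are log2 fold changes (log2FC) of PIC + TBHQ over PIC from the counts, with ± the SE from the log2 CPM (counts relative to library size, with TMM factors) of 3 libraries against 3. The PIC libraries held 15178175, 15502461 and 18851626 counts and the PIC + TBHQ libraries 16212079, 14934775 and 16906576. A gene with 3 counts, the least treated as signal, therefore stands at 0.159 to 0.201 CPM of the raw library total, and this limit covers counting error only. Sums of CPM over gene groups below carry the TMM factors and so are on a slightly different scale. Mitochondrial genes took 1.86%, 1.77% and 1.91% of the counts with PIC and 1.70%, 1.74% and 1.73% with PIC + TBHQ. Every PIC library thus had a larger mitochondrial share than any PIC + TBHQ library, and the part of this in the results was not tested.

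The cells carried marks of myeloid cells, the type of the labelled line, and the markers below do not identify the line itself. Among 18 genes of myeloid identity the most abundant in counts was Lyz2, the lysozyme of macrophages, with 61055, 63112 and 78966 counts with PIC and 81590, 70844 and 87656 with PIC + TBHQ. Of the 50-base words of its transcripts 15.4% also occur in other genes, so reads may not all be its own. The T cell receptor and coreceptor genes Cd3e, Cd4, Cd8a and Trac had 0 counts in all 6 libraries, and only the kinase gene Lck, with 190 to 225 counts, was well above the floor among the 7 T cell markers, which summed to 14.2, 13.5 and 13.0 CPM with PIC and 13.9, 13.9 and 11.8 with PIC + TBHQ. Igkc of B cells, Col1a2 of fibroblasts, and Ly6g and S100a9 of neutrophils were at 0 in the 6 libraries. Of 6 epithelial genes 5 were at 0 and Krt5 had 1 count. Pax5 (at most 10 counts), Kdr (at most 23) and S100a8 (at most 67) were the most abundant of the B cell, the fibroblast and endothelial, and the neutrophil markers. In such bulk libraries fewer cells of a type and less RNA per cell cannot be told apart.

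TBHQ before PIC raised enzymes of antioxidant defence and lowered interferon-stimulated and inflammatory genes on a broad front. Of 91 tested antioxidant genes 61 were higher and 12 lower, of 120 interferon genes 3 were higher and 95 lower, and of 123 inflammatory genes 6 were higher and 89 lower, where 15.8% of all tested genes were higher and 15.5% lower. In median, the antioxidant genes stood at a log2FC of 0.25, the interferon genes at -0.44 and the inflammatory genes at -0.48, beside 0.01 over all genes. Mitotic genes rose together, and p53 targets, heat shock genes and many genes of glycolysis and hypoxia fell.

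These calls are from the quasi-likelihood test of edgeR, adjusted by Benjamini-Hochberg to a false discovery rate (FDR) below 0.05, over 13691 genes that passed a filter on low counts. In all, 4285 genes (31.3%) were called, 2167 higher (15.8%) and 2118 lower (15.5%), which is the background for each count of a gene group. This background is not matched for abundance, and the share called rose steeply with abundance, as given below. The split between directions depended on the scaling of the libraries. When libraries were scaled by total library size and not by TMM factors, 3398 genes were higher and 1436 lower. TMM factors take most genes as unchanged. They were 0.913, 0.911 and 0.915 with PIC and 0.956, 0.962 and 0.956 with PIC + TBHQ. Most changes were small, with a median absolute log2FC of 0.30 among higher and 0.29 among lower genes. Large changes were mainly falls, since 101 genes rose and 225 fell by more than 1 on the log2 scale. The 3 PIC + TBHQ libraries all lay above the 3 PIC libraries for 2025 of the 2167 higher genes, a pattern shown by 21.2% of all tested genes, and all below for 2010 of the 2118 lower genes (20.4% of all tested).

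Precision followed abundance. Among 3303 genes with a mean under 50 counts over the 6 libraries, 8.45% were called and the called ones had a median absolute log2FC of 1.23. Among 550 genes with at least 5000 counts 63.1% were called, at a median of 0.20, and 97 of them were higher and 250 lower. Protein-coding genes were called in 35.7% of 11262 cases, long noncoding RNAs in 10.8% of 1171 and pseudogenes in 12.6% of 894. The median SD of a gene's log2 CPM was 0.0960 among PIC libraries and 0.0878 among PIC + TBHQ libraries. Of the 12 tested genes that mitochondrial DNA encodes as proteins, 8 fell and the other 4 did not pass, with a median log2FC of -0.16.

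**Figure D1:**
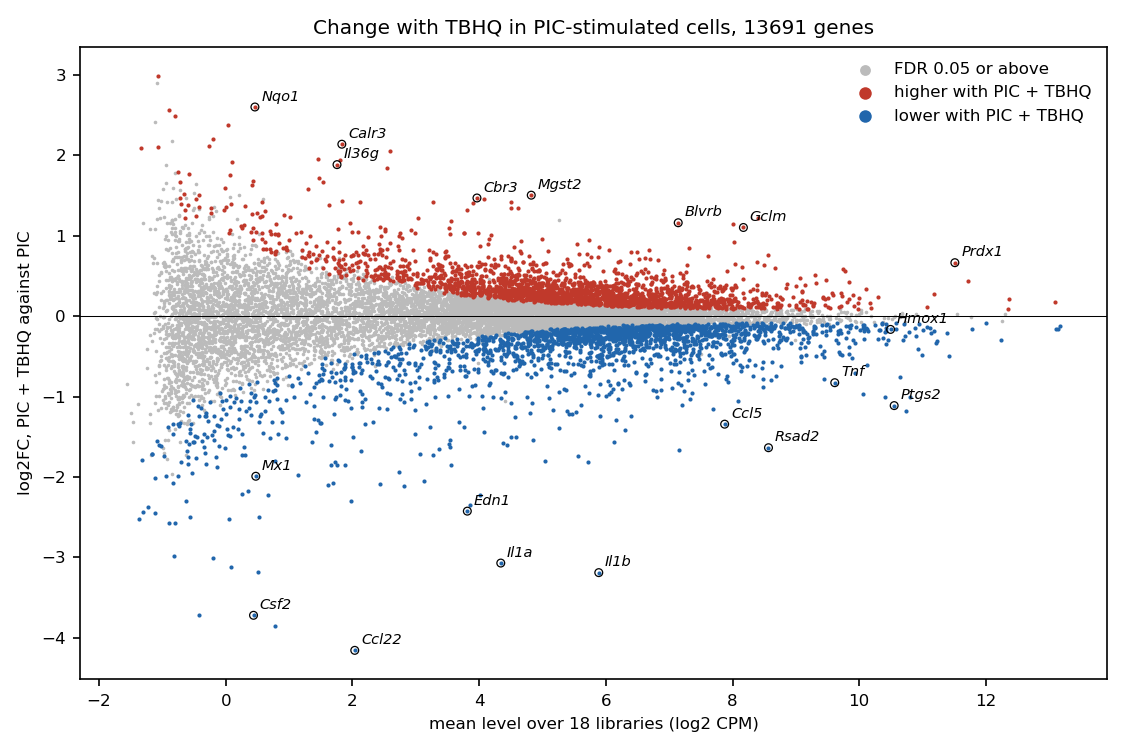
Each point is 1 of 13691 genes, with its mean level over the 18 libraries (log2 CPM) on the x axis and its log2FC of PIC + TBHQ against PIC on the y axis, red where called higher, blue where called lower and grey otherwise, and circles mark named genes. The furthest fall is that of the chemokine gene Ccl22 at -4.16, and Prdx1 is an abundant gene that rose.

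Transcripts for the first step of glutathione synthesis rose. Gclm (ENSMUSG00000028124, chromosome 3, 122039206 to 122064381) encodes the modifier subunit of glutamate-cysteine ligase. It stood at 29.2, 29.1 and 31.0 FPKM with PIC and 64.4, 61.3 and 64.8 FPKM with PIC + TBHQ. All PIC + TBHQ libraries were far above the PIC libraries, a 2.15-fold rise (log2FC 1.10 ± 0.040, adjusted p 1.7e-22). Untreated cells had 17.9 ± 0.561 FPKM (mean ± SD, n = 3) and cells after 4 h of TBHQ 63.4 ± 1.53 FPKM, so the pretreated PIC cells were at the level of the short TBHQ exposure. The catalytic subunit Gclc (0.35), the cystine transporter Slc7a11 (0.41) and glutathione reductase Gsr (0.64), which regenerates glutathione, rose less. Of 14 glutathione and cystine genes 8 rose and 1 fell, at a median log2FC of 0.19. The gene that fell was Glrx, a glutaredoxin, at -0.57 ± 0.053.

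Prdx1 (ENSMUSG00000028691, chromosome 4, 116542741 to 116558019), a peroxiredoxin that reduces hydrogen peroxide, was among the most abundant genes that rose. Its levels were 1155, 1203 and 1099.9 FPKM with PIC and 1817, 1801 and 1822 FPKM with PIC + TBHQ. The ranges of the groups lay far apart, at a fold of 1.59 (log2FC 0.66 ± 0.039, adjusted p 6.1e-19). Sulfiredoxin, Srxn1 (0.59), which repairs overoxidised peroxiredoxins, and thioredoxin reductase, Txnrd1 (0.29), rose as well. Of 14 thioredoxin and peroxiredoxin genes 6 rose and 4 fell. The falls numbered 1 with total library size, 2 without PIC replicate 1 and 1 without PIC + TBHQ replicate 1. Sesn2, a stress-induced sestrin, fell at -0.45 ± 0.036.

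Enzymes that detoxify quinones, carbonyls and other electrophiles showed the widest rise of the antioxidant groups, with 20 of 22 tested genes higher, 1 lower and a median log2FC of 0.50. Nqo1 (ENSMUSG00000003849, chromosome 8, 108114857 to 108129838), the quinone reductase that gives the pathway its best known marker, was a rare transcript with 6, 6 and 5 counts with PIC and 42, 34 and 31 counts with PIC + TBHQ. In FPKM this was 0.283, 0.278 and 0.190 FPKM with PIC and 1.76, 1.54 and 1.24 FPKM with PIC + TBHQ. No PIC library came near the PIC + TBHQ libraries (log2FC 2.60 ± 0.20, adjusted p 5.1e-06), yet the level remained low. Mgst2, a microsomal glutathione transferase (1.505 ± 0.080), Cbr3, a carbonyl reductase (1.47 ± 0.085), Akr1b8, an aldo-keto reductase (1.15 ± 0.021), and Ptgr1, a prostaglandin and alkenal reductase (0.96), rose from higher levels. Gstp3, a glutathione transferase, fell at -1.51 ± 0.19 and had 65, 59 and 63 counts with PIC and 28, 18 and 21 counts with PIC + TBHQ.

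Heme and iron genes divided. Hmox1 (ENSMUSG00000005413, chromosome 8, 75820249 to 75827217), the inducible heme oxygenase, had 1126, 1213 and 1152 FPKM with PIC and 1034, 1019 and 1038 FPKM with PIC + TBHQ. Its PIC libraries were all slightly above the PIC + TBHQ libraries, a fall of 1.12-fold (log2FC -0.16 ± 0.033, adjusted p 2.9e-04), which was -0.10 with total library size. Without PIC the gene stood at 194 ± 7.74 FPKM untreated and 829 ± 34.5 FPKM after 4 h of TBHQ. The next enzyme of heme breakdown, biliverdin reductase B (Blvrb), rose 2.24-fold (log2FC 1.16 ± 0.027), and the heme transporter Slc48a1 rose at 0.74 ± 0.033. Ferritin light chain Ftl1 (0.44, with 50.9% of its words shared) and heavy chain Fth1 (0.18), which store iron, and the iron exporter Slc40a1 (0.73) rose, and the transferrin receptor Tfrc, which imports iron, fell at -0.23 ± 0.032. Of 13 heme, iron and ferritin genes 9 rose and 2 fell, at a median of 0.28.

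NADPH, the reducing power behind these enzymes, is made largely in the pentose phosphate pathway. Of 13 genes of NADPH production 10 rose and the other 3 did not pass, with a median log2FC of 0.25. Taldo1, transaldolase, had 130.4, 129.8 and 132 FPKM with PIC and 223, 215 and 223 FPKM with PIC + TBHQ. Its groups did not overlap (log2FC 0.76 ± 0.021, adjusted p 8.0e-18). Pgd, phosphogluconate dehydrogenase (0.56 ± 0.015), Tkt, transketolase (0.48), and G6pdx, the entry enzyme (0.38), rose with it.

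Of the transcripts of the sensor pair, that of Nrf2 moved little. Nfe2l2 (ENSMUSG00000015839, chromosome 2, 75505857 to 75534985) had 34.5, 33.8 and 36.4 FPKM with PIC and 35.8, 36.5 and 36.6 FPKM with PIC + TBHQ. The ranges of the groups overlapped, and the gene did not pass (log2FC 0.07 ± 0.031, adjusted p 0.249) except with total library size, where it was 0.14. Its log2FC was 0.04 without PIC replicate 1 and 0.03 without PIC replicate 2. Keap1 rose at 0.29 ± 0.057. Other targets rose further: Osgin1, an oxidative stress growth inhibitor, at 1.01 ± 0.088 and Cat, catalase, at 0.92 ± 0.031. The small Maf partner Maff (-0.48) and the stress coregulator Nupr1 (-0.75) fell, and of 16 Nrf2 regulators and other targets 9 rose and 4 fell, at a median of 0.13 (0.08 with DESeq2 and 0.20 with total library size). Summed over the antioxidant groups, the listed genes held 40699, 41295 and 40043 CPM with PIC and 48737, 47787 and 48464 CPM with PIC + TBHQ, so every pretreated library was above every PIC library. Abundant genes weigh most in such a sum. The heme, iron and ferritin genes held 17084, 17309 and 16890 CPM of it with PIC and 20011, 19371 and 19751 CPM with PIC + TBHQ. The Nrf2 regulators and other targets alone overlapped, at 8043, 8244 and 7926 CPM with PIC and 8078, 7979 and 7987 CPM with PIC + TBHQ.

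**Figure D2:**
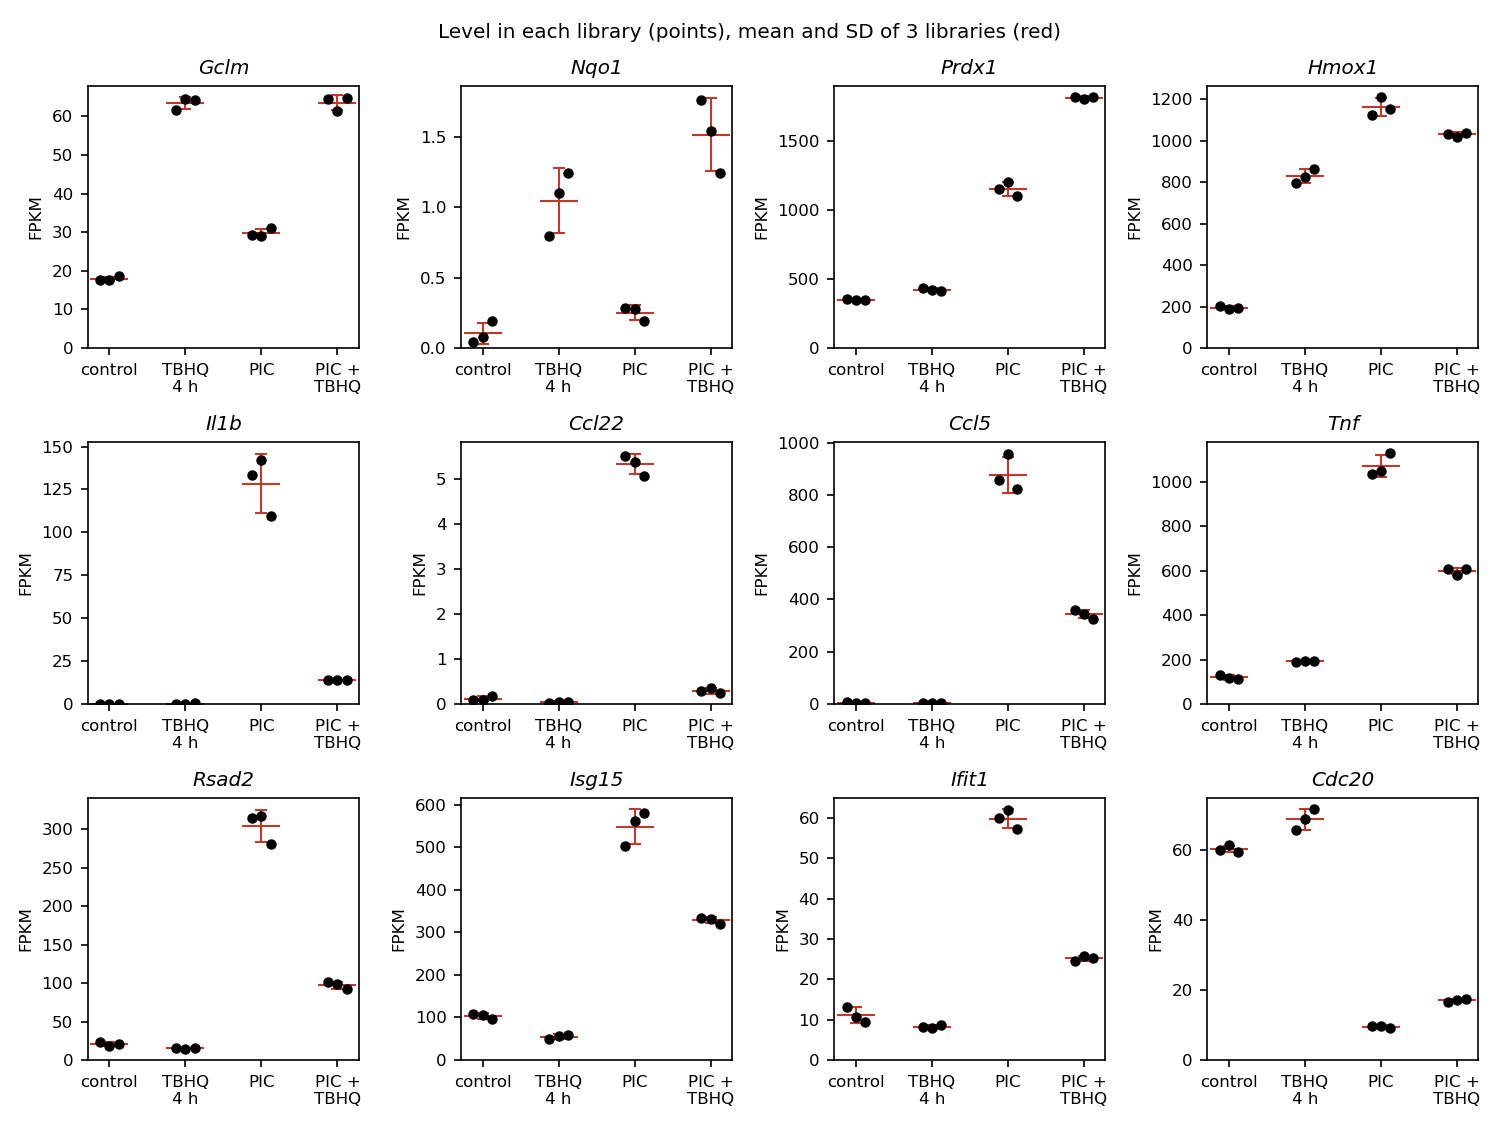
Each panel shows the deposited FPKM of 1 gene in the control, TBHQ for 4 h, PIC and PIC + TBHQ, with 1 point per library and the mean and SD of 3 libraries in red. Gclm, Nqo1, Prdx1 and Cdc20 are higher with PIC + TBHQ than with PIC, and the other 8 genes are lower in all 3 libraries, by as little as -0.16 on the log2 scale for Hmox1.

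The sensors of double-stranded RNA fell. Tlr3 (ENSMUSG00000031639, chromosome 8, 45848702 to 45864117), the endosomal receptor for PIC, had 3.94, 4.46 and 3.90 FPKM with PIC and 2.59, 2.54 and 2.60 FPKM with PIC + TBHQ. Each PIC library was above each PIC + TBHQ library, at a 1.58-fold fall (log2FC -0.66 ± 0.064, adjusted p 2.4e-06). Ifih1, which encodes MDA5, fell at -0.78 ± 0.028, Ddx58, which encodes RIG-I, at -0.28 ± 0.038, and Zbp1, a sensor of left-handed nucleic acid that can start necroptosis, at -0.98 ± 0.044. Ticam1, the Tlr3 adaptor (-0.37), and the kinase Ikbke (-0.34), which phosphorylates IRF factors, fell too. Of 18 genes of RNA sensing and interferon induction 12 fell and 3 rose, at a median of -0.28, and without PIC replicate 1 the rises numbered 1.

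The listed interferon transcripts themselves were at the edge of detection or absent. Ifnb1 had 12, 4 and 6 counts with PIC and 3, 2 and 0 counts with PIC + TBHQ, too few to be tested, and Ifna1, Ifna2, Ifna4, Ifna5 and Ifng had 0 counts in all 6 libraries. After 12 h of PIC these ligands could thus hardly be measured, with or without TBHQ, and other interferon genes were not looked at. Of the receptor genes Ifnar1, Ifnar2, Ifngr1, Ifngr2 and Il10rb (13.9% of its words shared), the quasi-likelihood test of edgeR called 0 of 5. In the same 5 genes 1 was lower at an unadjusted p below 0.05, and DESeq2 called 0. With RLE factors, with the 6 libraries alone, with a filter at a mean of 50 counts, without PIC replicate 2 or without PIC replicate 3, 1 was called lower.

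Downstream of the receptors the signal carriers fell. Irf7 (ENSMUSG00000025498, chromosome 7, 140842619 to 140846394), the interferon regulatory factor that amplifies the response, had 198, 202 and 205 FPKM with PIC and 124, 116 and 116 FPKM with PIC + TBHQ. The PIC libraries clustered well above the PIC + TBHQ libraries (log2FC -0.75 ± 0.035, adjusted p 5.3e-18). Stat2 (-0.52), Jak2 (-0.48), Irf1 (-0.43) and the feedback inhibitor Socs3 (-0.69) also fell. Of 17 JAK, STAT, IRF and SOCS genes 13 fell and the other 4 did not pass, at a median of -0.33.

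Antiviral effectors fell almost as a block: 35 of 37 were lower and the other 2 did not pass, with a median log2FC of -0.56. Rsad2 (ENSMUSG00000020641, chromosome 12, 26492745 to 26506451), viperin, which makes a chain-terminating nucleotide, had 315, 318 and 281 FPKM with PIC and 101, 98.6 and 92.2 FPKM with PIC + TBHQ. Its PIC + TBHQ libraries lay within a narrow band far under the PIC libraries, a 3.11-fold fall (log2FC -1.64 ± 0.070, adjusted p 4.7e-23). Untreated cells had 20.9 ± 2.51 FPKM, so the pretreated cells still stood well above rest.

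Isg15 (ENSMUSG00000035692, chromosome 4, 156283912 to 156285253), a ubiquitin-like modifier, stood at 502, 561 and 581 FPKM with PIC and 333, 331 and 320.1 FPKM with PIC + TBHQ. The groups were apart in every library (log2FC -0.73 ± 0.064, adjusted p 1.7e-14), and the control held 104 ± 6.54 FPKM. Ifit1 (ENSMUSG00000034459, chromosome 19, 34618271 to 34627409), which binds foreign RNA ends, had 60.1, 62.1 and 57.3 FPKM with PIC and 24.5, 25.7 and 25.3 FPKM with PIC + TBHQ. Here too no library of either group reached the other group's range (log2FC -1.24 ± 0.040, adjusted p 5.5e-18). The dynamin-like Mx1 (-1.99 ± 0.14), the nucleotide kinase Cmpk2 (-1.66), Isg20, an exonuclease (-1.54), and Oasl2, an oligoadenylate synthetase-like protein (-1.11 ± 0.057), fell with them. Ifit3 fell at -1.80 ± 0.13 but shares 51.2% of its words with other genes.

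Guanylate-binding proteins and immunity-related GTPases, which attack pathogen vacuoles, fell in 12 of 13 tested genes, at a median of -0.76. Gbp2 (ENSMUSG00000028270, chromosome 3, 142326363 to 142343769) had 25.7, 26.1 and 25.9 FPKM with PIC and 9.63, 9.43 and 8.13 FPKM with PIC + TBHQ. Its fall was 2.84-fold with no overlap (log2FC -1.51 ± 0.076, adjusted p 7.9e-15). Gbp5, which promotes inflammasome assembly, fell at -1.94 ± 0.12, and at -1.25 on log2(FPKM + 1), where the added 1 weighs on low levels. Of 10 genes of the Ifi200 family, DNA sensors and regulators, 8 fell at a median of -1.02, with Ifi208 at -1.81 ± 0.12 and 20.8% of its words shared. Of the transcripts for MHC class I and its peptide loading, 15 of 20 were lower at a median of -0.33 (1 was higher with total library size), among them B2m, the common light chain (-0.48), Psmb9 of the immunoproteasome (-0.67 ± 0.10) and the peptide pump Tap1 (-0.55). Summed over the interferon groups, the listed genes held 22206, 22844 and 21880 CPM with PIC and 15404, 15224 and 15116 CPM with PIC + TBHQ.

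The interleukin 1 genes showed the steepest falls among abundant cytokines. Il1b (ENSMUSG00000027398, chromosome 2, 129206490 to 129213059), a pyrogenic cytokine, had 134, 142 and 109 FPKM with PIC and 13.998, 13.7 and 14.1 FPKM with PIC + TBHQ. The pretreated libraries were close to each other and far under every PIC library, a 9.13-fold fall (log2FC -3.19 ± 0.12, adjusted p 4.4e-23). Its neighbour Il1a (ENSMUSG00000027399, chromosome 2, 129141530 to 129151892), an alarmin, had 46.4, 46.0 and 43.3 FPKM with PIC and 5.15, 5.42 and 5.43 FPKM with PIC + TBHQ. The separation was as clear (log2FC -3.07 ± 0.041, adjusted p 3.6e-21). In untreated cells both were near absence, at 0.0432 ± 0.0184 FPKM for Il1b and 0.0513 ± 0.0334 FPKM for Il1a.

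Of 18 tested interleukin, colony-stimulating factor and related genes 13 fell and 2 rose, at a median of -0.83, and the rises numbered 1 without PIC replicate 1 or 2, without PIC + TBHQ replicate 2 or 3, with limma or with a filter at a mean of 50 counts. Csf2, which encodes GM-CSF, had 118, 77 and 77 counts with PIC and 10, 4 and 7 counts with PIC + TBHQ (log2FC -3.72 ± 0.38, and -2.46 on log2(FPKM + 1)). Il27, a cytokine subunit that shapes T cells, fell at -2.09 ± 0.26, and Lif, a cytokine of the interleukin 6 family, at -1.82. Il36g (ENSMUSG00000044103, chromosome 2, 24076488 to 24083580), an interleukin 1 family member, went the other way. It had 1.33, 1.79 and 1.76 FPKM with PIC and 5.21, 6.28 and 6.51 FPKM with PIC + TBHQ. All pretreated libraries were above the PIC libraries (log2FC 1.88 ± 0.16, adjusted p 1.4e-09), and in untreated cells the gene was listed at 0 FPKM. Il10, the anti-inflammatory cytokine, had 7, 20 and 20 counts with PIC and 1, 0 and 2 counts with PIC + TBHQ, and Il12b, a subunit of interleukins 12 and 23, had 8, 8 and 10 counts with PIC and 2, 2 and 1 counts with PIC + TBHQ. These were too few to be tested.

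Chemokines, which recruit leukocytes, fell in 9 of 9 tested CC genes (median -1.18) and in 4 of 5 tested CXC genes (median -0.85). Ccl22 (ENSMUSG00000031779, chromosome 8, 95472218 to 95478327), which attracts regulatory T cells, had 5.51, 5.39 and 5.08 FPKM with PIC and 0.280, 0.363 and 0.241 FPKM with PIC + TBHQ. This was the furthest fall of the genes named here at a mean of 50 counts or more, 17.9-fold (log2FC -4.16 ± 0.15, adjusted p 7.5e-18), and -2.29 on log2(FPKM + 1). Ccl5 (ENSMUSG00000035042, chromosome 11, 83416604 to 83421344), an abundant attractant of T cells and monocytes, had 855, 955 and 821 FPKM with PIC and 358, 344 and 327 FPKM with PIC + TBHQ. Its groups were apart in each library (log2FC -1.34 ± 0.076, adjusted p 3.5e-21). Ccl7 (-1.41 ± 0.074) and Ccl9 (-1.18 ± 0.017), attractants of monocytes, and Cxcl10 (-1.51 ± 0.063) and Cxcl11 (-2.50 ± 0.074), which attract T cells through the receptor Cxcr3, fell as well.

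Tnf (ENSMUSG00000024401, chromosome 17, 35418357 to 35420983), the founding cytokine of its family, had 1038, 1049.8 and 1129.5 FPKM with PIC and 607, 583 and 609 FPKM with PIC + TBHQ. The lowest PIC library was far above the highest PIC + TBHQ library, a 1.78-fold fall (log2FC -0.83 ± 0.043, adjusted p 3.7e-18). Of 13 genes of the TNF family and its receptors 7 fell and the other 6 did not pass, at a median of -0.40, with Cd40, a costimulatory receptor, at -1.08 ± 0.037. Edn1 (ENSMUSG00000021367, chromosome 13, 42454952 to 42461466), which encodes the vasoconstrictor endothelin, had 29.7, 27.0 and 27.3 FPKM with PIC and 4.96, 5.59 and 4.95 FPKM with PIC + TBHQ. It fell 5.38-fold without overlap (log2FC -2.43 ± 0.071, adjusted p 6.0e-20). Hdc, which makes histamine, fell at -1.72 ± 0.084, and of 15 inflammatory enzymes and mediators 10 fell and the other 5 did not pass, 1 of which rose with total library size. The median was -0.31, or -0.47 without PIC + TBHQ replicate 3 and -0.49 with limma on log2(FPKM + 1).

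Subunits and brakes of NF-κB fell together, in 16 of 21 genes at a median of -0.38. Nfkbia (ENSMUSG00000021025, chromosome 12, 55536195 to 55539432), the inhibitor that NF-κB itself induces, had 246, 252 and 255 FPKM with PIC and 162, 156 and 163 FPKM with PIC + TBHQ. The groups were well separated (log2FC -0.63 ± 0.026, adjusted p 2.0e-15). Tnfaip3, the A20 deubiquitinase (-0.83 ± 0.021), Nfkbiz, a nuclear coregulator (-0.92 ± 0.041), Rel (-0.61) and Nfkb2 (-0.55), which encode subunits, fell, and Rela (-0.02) and Relb (-0.13) did not pass.

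Immediate-early genes fell in 17 of 24 cases, at a median of -0.42. Egr1, a zinc-finger factor induced by growth signals, fell at -1.74 ± 0.089, Dusp1, a phosphatase of MAP kinases, at -0.83, and Zfp36, which speeds decay of cytokine mRNA, at -0.96 ± 0.048. The sole rise was Jun, an AP-1 subunit, at 0.13 ± 0.030, and it did not pass without PIC replicate 1, 2 or 3 or without PIC + TBHQ replicate 1 or 3 (0.10 without PIC replicate 1). It also did not pass with DESeq2, RLE factors, limma, a filter at a mean of 50 counts or no filter. With total library size the rises numbered 3. Inflammasome and cell death genes fell in 13 of 18 cases and rose in 3 (median -0.38), or in 2 when any 1 library was left out and with DESeq2, RLE factors, the 6 libraries alone, a filter at a mean of 50 counts or no filter. Nlrp3, the sensor (-0.63), and Casp4 (-0.60) fell and Ninj1, which ruptures dying cells (0.30 ± 0.043), rose. The anti-apoptotic genes Bcl2a1a (-1.35) and Bcl2a1d (-0.94) fell, but share 69.0% and 79.5% of their words with other genes. Over the inflammatory groups the listed genes summed to 59019, 58418 and 58956 CPM with PIC and 37849, 37086 and 37491 CPM with PIC + TBHQ.

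**Figure D3:**
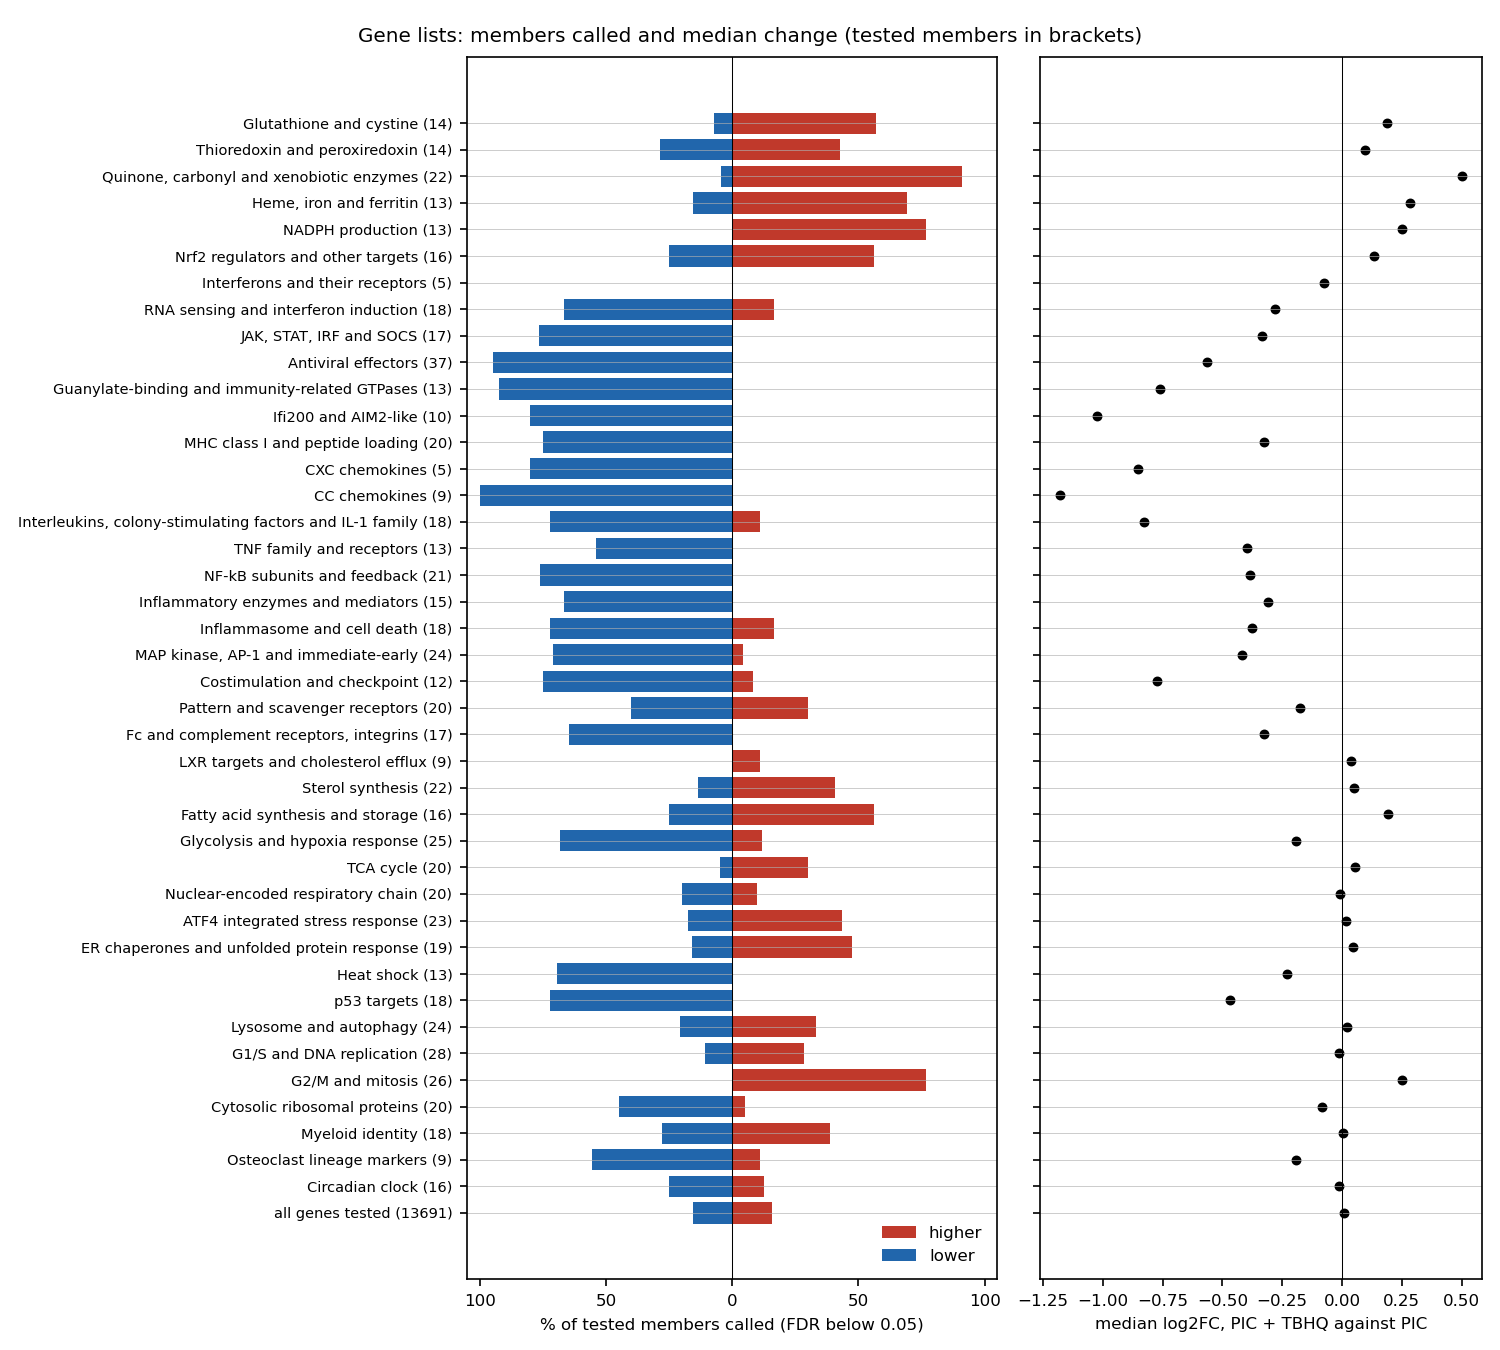
For each gene list, with the number of tested members in brackets, bars give the percentage of members called higher (red) or lower (blue) and points the median log2FC of PIC + TBHQ against PIC, with all 13691 genes in the last line. The medians of the ATF4, G1/S, respiratory chain, LXR, lysosome, myeloid identity and circadian lists lie near 0 and change sign under at least 1 other setting.

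On the surface, costimulatory and checkpoint genes fell in 9 of 12 cases at a median of -0.77, with Icosl, a ligand for activated T cells (-1.22 ± 0.15), Cd86 (-1.07) and Cd80 (-0.91). The inhibitory receptor Cd200r1 was the single rise, at 0.37 ± 0.032. Pattern and scavenger receptors divided, 6 higher and 8 lower of 20, with Stab1, a scavenger receptor (0.79 ± 0.090), and Clec4n, which encodes dectin-2 (0.65 ± 0.16), up and Clec7a, which encodes dectin-1 (-0.61 ± 0.17), and Msr1, a scavenger receptor for modified lipoprotein (-0.40 ± 0.021), down. Among Fc and complement receptors and integrins 11 of 17 fell and the other 6 did not pass (median -0.33, and 1 rise with total library size), with the high-affinity IgG receptor Fcgr1 at -1.08 ± 0.081.

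Identity genes of macrophages moved in both directions, 7 higher and 5 lower of 18, at a median of 0.00 whose sign changes with RLE and DESeq2 size factors and without PIC replicate 1 or 3 or PIC + TBHQ replicate 1 or 2. Trem2, a lipid receptor (0.84 ± 0.042), Cebpa, a myeloid transcription factor (0.82 ± 0.23, and 0.51 on log2(FPKM + 1)), and Csf1r, the receptor for macrophage growth factor (0.45), rose. Adgre1, which encodes the F4/80 antigen (-0.53 ± 0.038), and the cysteine protease Ctss (-0.38 ± 0.023) fell. RAW264.7 cells can form osteoclasts, and of 9 tested osteoclast genes 5 fell and 1 rose (median -0.19, or -0.12 with total library size), with the fusion gene Ocstamp down at -0.58 ± 0.052 and the fusion gene Dcstamp up at 0.39 ± 0.020. Lysosome and autophagy genes gave 8 rises and 5 falls of 24 (3 falls with total library size), with the sialidase Neu1 up at 0.48 ± 0.024.

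In metabolism, glycolysis and hypoxia genes fell in 17 of 25 cases and rose in 3 (5 with total library size), at a median of -0.19 (-0.12 with total library size). Bnip3 (ENSMUSG00000078566, chromosome 7, 138492565 to 138511248), a hypoxia-induced mitophagy receptor, had 64.1, 64.6 and 67.7 FPKM with PIC and 24.98, 27.4 and 27.4 FPKM with PIC + TBHQ. The groups did not overlap (log2FC -1.29 ± 0.050, adjusted p 5.1e-21), and 16.5% of its words are shared with other genes. The glucose transporter Slc2a1 (-0.51), Pfkfb3, a regulator of glycolytic flux (-0.998), and Vegfa, an angiogenic factor (-0.49), fell. Fatty acid genes rose in 9 of 16 cases and fell in 4 (2 with total library size), among them the elongase Elovl6 (0.54 ± 0.042) and the desaturase Fads1 (0.46 ± 0.028), both higher. Sterol synthesis genes rose in 9 of 22 and fell in 3, and without PIC replicate 1 the rises numbered 5. Hmgcs1, the synthase near the start of that pathway, fell at -0.32 ± 0.048. Of 9 LXR targets and cholesterol transport genes only Mylip, a ligase for lipoprotein receptors, passed, at 0.41 ± 0.18, and it no longer did without PIC + TBHQ replicate 2, where it was 0.22. Without PIC replicate 1, 2 or 3 it did not pass either, at 0.35, 0.44 and 0.41, nor with DESeq2, RLE factors, the 6 libraries alone, limma or a filter at a mean of 50 counts. With total library size 3 genes of this list rose.

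TCA cycle genes were mostly level, with 6 higher and 1 lower of 20. With total library size 12 were higher and the lower gene no longer passed, and it also did not with DESeq2, the 6 libraries alone, no filter, the replicate number as a factor, or without PIC replicate 1 or 3 or PIC + TBHQ replicate 1 or 2. Without PIC replicate 1 the rises numbered 2. Pcx, pyruvate carboxylase, which refills the cycle, stood out at 0.93 ± 0.11. Nuclear genes of the respiratory chain gave 2 rises and 4 falls of 20, 9 rises and 2 falls with total library size, and 1 rise without PIC replicate 1, 2 or 3 or PIC + TBHQ replicate 2 or 3, so their direction cannot be given.

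Stress programs differed. Of 18 p53 targets 13 fell, at a median of -0.47, and the other 5 did not pass, although with total library size 2 genes rose beside 13 that fell. Phlda3, an inhibitor of Akt, fell at -1.505 ± 0.28, Trp53inp1, a cofactor of p53 in stress, at -1.71 ± 0.15 (-0.99 on log2(FPKM + 1)), Cdkn1a, the cell cycle inhibitor p21, at -1.05, and Mdm2, the ligase for p53, at -0.88. Heat shock genes fell in 9 of 13 cases at a median of -0.23, with the cochaperone Dnajb1 at -0.52 ± 0.048. Chaperones of the endoplasmic reticulum gave 9 rises and 3 falls of 19 (median 0.05, or 0.11 with total library size and 0.03 with RLE factors or a filter at a mean of 50 counts), with Sdf2l1 (0.46 ± 0.040) up and Dnajb9 (-0.43 ± 0.028) down. Targets of ATF4, the factor of the integrated stress response, gave 10 rises and 4 falls of 23, and the rises numbered 5 without PIC replicate 1 and 6 without PIC + TBHQ replicate 1. Their median of 0.02 changes sign with RLE factors, with a filter at a mean of 50 counts and without PIC replicate 2. Atf5, a related factor, rose at 0.28 ± 0.051 and Ddit4, a brake on growth signalling, fell at -1.02 ± 0.091.

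Mitotic genes rose in 20 of 26 cases, at a median of 0.25, and the other 6 did not pass, although 1 fell with RLE factors, with a filter at a mean of 50 counts, without PIC replicate 1 or 2 or without PIC + TBHQ replicate 3. Cdc20 (ENSMUSG00000006398, chromosome 4, 118290098 to 118294549), the activator that starts anaphase, had 9.73, 9.78 and 9.01 FPKM with PIC and 16.7, 17.2 and 17.5 FPKM with PIC + TBHQ. The pretreated libraries were all above the PIC libraries (log2FC 0.86 ± 0.044, adjusted p 4.0e-12), yet untreated cells held 60.3 ± 0.979 FPKM, and 10.4% of the gene's words are shared. Plk1, a mitotic kinase (0.89 ± 0.038) and Ccnb1, cyclin B1 (0.54, with 23.4% of its words shared), rose too. Genes of G1/S and replication gave 8 rises and 3 falls of 28 around a median of -0.01 that changes sign with total library size and without PIC replicate 3, with the G1 cyclin Ccnd1 at 0.65 ± 0.052 and the transcription factor E2f2 at 0.58 ± 0.052. Falls were common among abundant genes of any kind, with 250 lower and 97 higher of 550 genes at 5000 counts or more. Of 20 cytosolic ribosomal proteins 9 fell and 1 rose, or 5 and 3 with total library size. That rise did not pass with DESeq2, RLE factors, limma, a filter at a mean of 50 counts, without PIC replicate 1 or 2 or without PIC + TBHQ replicate 1 or 3, and 2 rose without PIC + TBHQ replicate 2. Clock genes gave 2 rises and 4 falls of 16, at a median of -0.01 that is positive with total library size and without PIC + TBHQ replicate 2. The rises numbered 1 without PIC replicate 3, and the falls 2 with total library size, without a filter on counts, without PIC replicate 1, without PIC replicate 2 or without PIC + TBHQ replicate 1.

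Outside the lists, the strongest rises among genes with a mean of at least 50 counts were of rare transcripts. Calr3, a testis calreticulin, had 18, 19 and 23 counts with PIC and 103, 82 and 85 counts with PIC + TBHQ. Every pretreated library exceeded every PIC library (log2FC 2.14 ± 0.098). Cacng8, a calcium channel gamma subunit (2.05 ± 0.099), Tarm1, an activating receptor of myeloid cells (1.95 ± 0.31), Serpinb1b, a protease inhibitor (1.94 ± 0.10), Myh14, a nonmuscle myosin (1.84 ± 0.21), Susd3 (1.45 ± 0.10) and Nrp1, a coreceptor for semaphorins (1.42 ± 0.085), also rose without overlap. On log2(FPKM + 1) the changes of Calr3, Cacng8, Tarm1, Serpinb1b and Nrp1 were 1.25, 1.2997, 1.16, 1.23 and 0.82. Creg1, a secreted glycoprotein at 79.9, 80.9 and 78.7 FPKM with PIC and 182, 183 and 190.2 FPKM with PIC + TBHQ, was an abundant gene with a clear rise (log2FC 1.22 ± 0.025, adjusted p 3.8e-23).

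The falls outside the lists included Serpinb2 (ENSMUSG00000062345, chromosome 1, 107439153 to 107463208), an inhibitor of plasminogen activation. It had 32.2, 30.9 and 30.4 FPKM with PIC and 6.62, 6.71 and 6.50 FPKM with PIC + TBHQ. Pretreated libraries were tightly grouped at the lower level (log2FC -2.23 ± 0.029, adjusted p 8.5e-20), and 10.4% of its words are shared. Slc7a2, an arginine transporter (-2.12 ± 0.11), Ms4a6c, a membrane protein of myeloid cells (-2.30 ± 0.25, with 10.5% of its words shared), Trim30c (-2.10 ± 0.27) and Col5a3, a collagen chain (-2.07 ± 0.17), fell without overlap. Wfdc17, a secreted protein of activated macrophages, had 215, 228 and 214 FPKM with PIC and 100.4, 93.0 and 94.7 FPKM with PIC + TBHQ (log2FC -1.18 ± 0.045).

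Set beside LPS, the change with TBHQ was broadly shared but unequal in size. LPS + TBHQ against LPS, which shares no library with PIC + TBHQ against PIC, had 1601 genes higher (11.7%) and 1673 lower (12.2%). Of the genes higher with PIC + TBHQ, 1101 were also higher with LPS + TBHQ, which is 50.8% of the former and 68.8% of the latter, and 1208 lower genes were shared, 57.0% and 72.2%. Across all 13691 genes, which are not independent replicates, the log2FCs correlated at 0.589, and 91.5% of the 4285 called genes had the same sign with LPS. A test of the difference itself called 251 genes (1.83%), 113 with a positive and 138 with a negative difference of PIC minus LPS.

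Of 120 interferon genes 34 differed between the stimuli, all of them with a positive difference, and 18 of the 34 were antiviral effectors. Over the whole group the median was -0.44 with PIC and -0.63 with LPS, but genes of RNA sensing and interferon induction had medians of -0.28 and -0.21. These medians were not tested, and the 4 differences called in that list were all positive. Gbp2 fell at -1.51 with PIC and -2.80 with LPS (difference 1.29, adjusted p 1.9e-06), and Oasl2 at -1.11 and -2.41 (difference 1.2999, adjusted p 1.1e-11). Of 123 inflammatory genes 20 differed, 19 with a negative difference, 8 of these in NF-κB genes, and Ccl5 was the exception. Over the whole group the median was -0.48 with PIC and -0.34 with LPS, but the medians of the CC chemokines (-1.18 with PIC, -1.26 with LPS) and of the interleukin group (-0.83 and -0.98) lay lower with LPS. These medians were not tested either. The differences called were 2 negative and 1 positive among CC chemokines and 1 negative in the interleukin group. Tnf fell at -0.83 with PIC and -0.24 with LPS (difference -0.58, adjusted p 1.8e-08), and Nfkbia at -0.63 and -0.37 (difference -0.27, adjusted p 0.00510). Ccl5 fell at -1.34 with PIC and -1.96 with LPS (difference 0.62, adjusted p 1.9e-06).

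**Figure D4:**
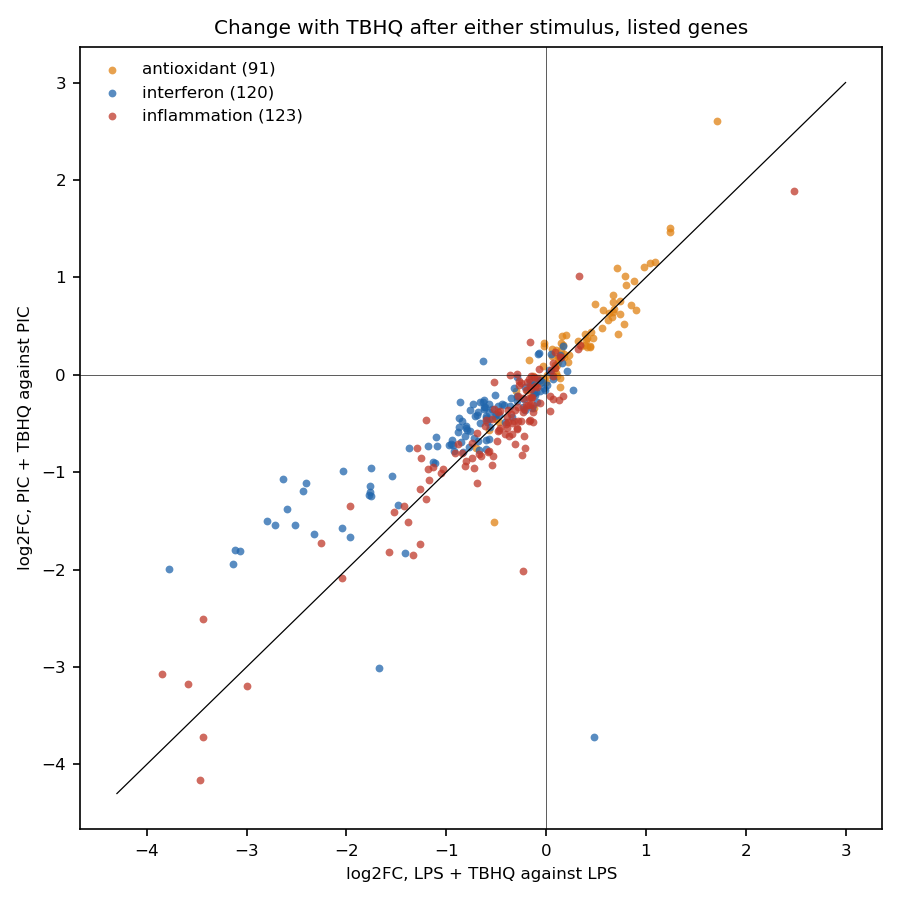
Each point is a tested gene of the antioxidant, interferon or inflammation lists, with its log2FC of LPS + TBHQ against LPS on the x axis and of PIC + TBHQ against PIC on the y axis, and the line marks equal changes. Most interferon genes with large falls lie above the line, and the lowest blue point is H2-Q7 (-3.72 with PIC, a mean of 12.2 counts and 26.4% shared words, picked out after its value was seen).

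Cells given TBHQ alone for 4 h, against untreated cells and without a library in common, had 1943 genes higher (14.2%) and 2030 lower (14.8%). Of the genes higher with PIC + TBHQ, 597 were higher after TBHQ alone, 27.5% of the former and 30.7% of the latter, and 675 of the lower genes were lower, 31.9% and 33.3%. Antiviral effectors fell in 34 of 37 cases after TBHQ alone, beside 35 with PIC. NF-κB genes gave 8 rises and 3 falls of 21 there, beside 16 falls with PIC. Tnf rose from 120.1 ± 10.6 to 193 ± 4.06 FPKM after TBHQ alone (log2FC 0.68) and Nfkbia from 52.8 ± 2.78 to 70.0 ± 3.27 FPKM (log2FC 0.40), whereas both fell with PIC. The cells given TBHQ alone were harvested 12 h earlier than the stimulated ones, and the difference between these changes was not tested. When the untreated cells were harvested is not given in the labels. TBHQ and time in culture therefore cannot be told apart in the comparison of TBHQ alone with untreated cells.

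Promoters are shown because genes of a pathway moved together. RefSeq sequences of mouse build GRCm38.p6, 250 bases before to 50 after each gene's start, were searched on both strands for the antioxidant response element core TGACNNNGC, the interferon-stimulated response element core GAAANNGAA and the kappaB core GGANNNNCC. The 3 motifs were in 12.4%, 8.56% and 48.4% of all 32851 promoters. Gclm (chr3:122245307-122245606, plus strand), Prdx1 (chr4:116685349-116685648, plus strand) and Srxn1 (chr2:152105274-152105573, plus strand), which rose, hold the antioxidant core, in capitals. So do Rsad2 and Nfkbia, which fell, whereas Nqo1, Mgst2, Akr1b8, Cbr3 and Cat, which rose, hold none.
Gclm: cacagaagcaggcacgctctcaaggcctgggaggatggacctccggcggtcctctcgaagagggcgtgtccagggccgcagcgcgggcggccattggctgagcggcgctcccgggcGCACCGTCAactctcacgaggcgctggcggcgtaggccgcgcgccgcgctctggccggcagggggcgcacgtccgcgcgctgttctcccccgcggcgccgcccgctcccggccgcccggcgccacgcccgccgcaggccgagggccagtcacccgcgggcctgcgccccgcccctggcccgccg
Prdx1: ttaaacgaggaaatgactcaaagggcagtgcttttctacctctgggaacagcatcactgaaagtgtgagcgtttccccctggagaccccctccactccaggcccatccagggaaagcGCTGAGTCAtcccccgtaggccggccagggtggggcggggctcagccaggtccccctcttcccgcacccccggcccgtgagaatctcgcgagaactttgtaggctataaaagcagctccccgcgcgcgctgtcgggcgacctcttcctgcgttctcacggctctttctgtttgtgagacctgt
Srxn1: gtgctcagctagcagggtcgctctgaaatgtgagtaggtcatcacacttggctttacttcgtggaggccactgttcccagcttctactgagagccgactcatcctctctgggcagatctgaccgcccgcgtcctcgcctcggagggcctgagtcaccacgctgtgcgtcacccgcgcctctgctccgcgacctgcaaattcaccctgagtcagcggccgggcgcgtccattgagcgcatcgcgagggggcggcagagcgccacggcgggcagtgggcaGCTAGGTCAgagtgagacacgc

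By gene, the antioxidant core was in a promoter of 13.99% of 27025 genes, of 7 of 16 Nrf2 regulators and other targets with a promoter (43.8%), of 4 of 13 thioredoxin and peroxiredoxin genes (30.8%), of 3 of 13 NADPH genes (23.1%), of 4 of 22 quinone and xenobiotic enzymes (18.2%) and of 2 of 12 glutathione genes (16.7%). Only 9578 of 13688 tested genes have a promoter in the table, and 17.0% of these hold the antioxidant core. With the others unseen, a comparison with the tested genes is void, so no excess over them can be read from these shares. The antioxidant core was also in 3 of 9 Ifi200 genes (33.3%), 6 of 20 ATF4 targets (30%) and 4 of 17 ER chaperones (23.5%). It was in 3 of 17 NF-κB genes (17.6%) and 1 of 14 JAK, STAT, IRF and SOCS genes (7.14%). Its share thus does not set the thioredoxin, NADPH, quinone or glutathione lists apart. Heme and iron genes are left out, since only 8 of 13 have a promoter. The interferon core was in a promoter of 9.76% of genes, of 17 of 30 antiviral effectors (56.7%) and of 5 of 16 MHC class I genes (31.3%). It was also in 7 of 9 Ifi200 genes (77.8%), 4 of 10 interferon and receptor genes (40.0%) and 3 of 14 JAK, STAT, IRF and SOCS genes (21.4%). Outside the interferon lists it was in 4 of 17 NF-κB genes (23.5%) and 0 of 17 ER chaperones. The core thus does not set the MHC class I or the JAK, STAT, IRF and SOCS list apart. Ifit1 (chr19:34640639-34640938, plus strand) and Isg15 (chr4:156200769-156201068, minus strand) hold 3 copies each and Rsad2 (chr12:26456403-26456702, minus strand) 1, in capitals, with copies that overlap running together. A match is a description of letters and shows no binding.
Ifit1: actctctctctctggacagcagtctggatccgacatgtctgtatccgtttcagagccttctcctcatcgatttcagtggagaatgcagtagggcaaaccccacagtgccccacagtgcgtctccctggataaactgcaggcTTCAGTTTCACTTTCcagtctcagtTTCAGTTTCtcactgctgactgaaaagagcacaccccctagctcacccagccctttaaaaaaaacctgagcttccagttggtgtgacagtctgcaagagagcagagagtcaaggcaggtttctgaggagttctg
Isg15: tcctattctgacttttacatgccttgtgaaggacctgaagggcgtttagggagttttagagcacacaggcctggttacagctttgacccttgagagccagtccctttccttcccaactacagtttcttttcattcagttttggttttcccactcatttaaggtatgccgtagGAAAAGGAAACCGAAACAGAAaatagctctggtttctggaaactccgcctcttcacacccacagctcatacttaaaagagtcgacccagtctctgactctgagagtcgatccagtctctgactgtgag
Rsad2: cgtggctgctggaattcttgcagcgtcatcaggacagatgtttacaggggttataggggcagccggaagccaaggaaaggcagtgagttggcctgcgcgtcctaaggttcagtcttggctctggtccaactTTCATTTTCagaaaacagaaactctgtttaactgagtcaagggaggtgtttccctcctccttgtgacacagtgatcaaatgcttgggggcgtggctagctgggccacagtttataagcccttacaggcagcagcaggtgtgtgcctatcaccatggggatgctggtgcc

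The kappaB core is a loose motif, present in a promoter of 51.5% of genes and of 63.0% of the 9578 tested genes that have one. It was in 14 of 17 NF-κB genes (82.4%), and about as often in 16 of 20 ATF4 targets (80.0%) and 10 of 13 NADPH genes (76.9%). It does not set the NF-κB genes apart. Nfkbia (chr12:55492598-55492897, minus strand), which fell, holds 6 matches over both strands, in capitals, of which 2 pairs lie on the same letters.
Nfkbia: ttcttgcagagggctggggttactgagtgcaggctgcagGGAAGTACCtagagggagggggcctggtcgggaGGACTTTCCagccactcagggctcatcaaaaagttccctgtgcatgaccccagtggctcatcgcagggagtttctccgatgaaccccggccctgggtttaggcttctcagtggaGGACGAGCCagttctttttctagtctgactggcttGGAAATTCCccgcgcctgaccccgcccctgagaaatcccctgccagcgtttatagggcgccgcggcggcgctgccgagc

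Gene positions given with an Ensembl identifier are those of the authors' files, whose build the submitters name as both GRCm38 and mm39, so they must not be mixed with the promoter coordinates. TBHQ was dissolved in DMSO and a carrier control for the PIC cultures is not described, nor is the time at which cells without TBHQ got PIC, so TBHQ, its carrier and any difference in handling time cannot be told apart.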

How the data were processed

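The authors deposited raw counts per gene of 18 RAW264.7 libraries, made per the submitters' notes with HISAT2 2.0.5 and featureCounts 1.5.0-p3 (strand setting not given). The authors also deposited FPKM, which differ from counts over gene length and library total by a factor per library (0.943 to 1.12). The notes name StringTie 1.3.3b as well.

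Counts were read in Python 3.11.15 (pandas 2.3.3, numpy 2.4.6, matplotlib 3.10.9) and tested in R 4.3.3 with edgeR 4.0.16: filterByExpr, TMM and glmQLFTest, 1 fit over 18 libraries with 1 coefficient per condition, Benjamini-Hochberg over 13691 genes, called at an FDR below 0.05. The common dispersion was 0.00192, and log2 CPM used a prior count of 2. The difference between stimuli was a contrast of the same fit. The code was tested on simulated data. Alternatives were DESeq2 1.42.0, limma 3.58.1 on log2(FPKM + 1), 6 libraries alone, RLE factors, total library size, other filters and thresholds, the replicate number as a factor, and leaving out each library.

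Members and the 46 gene lists were chosen with earlier results of these data known. Named genes are 25 fixed ones, the 10 furthest rises and falls (FDR under 0.01, 50 counts or more in the mean, no overlap, no clone names), up to 2 per direction of each list, 5 per direction at 100 FPKM or more, and 5 per direction of the difference between stimuli. Other list members in the text were chosen after their values were seen. Shared sequence is the share of a gene's 50-base words found in another gene, remarked above 10%.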

Additional observations from a re-analysis of the deposited data

Results flagged for a closer look

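For 36 named genes the change with TBHQ differed between PIC and LPS in a test of the difference itself (quasi-likelihood in edgeR, adjusted by Benjamini-Hochberg), and the values below are the log2 change with PIC minus that with LPS. Among interferon-stimulated genes the fall was smaller with PIC for Gbp2b (1.33), Ifit3 (1.32), Apol9b (1.32), Oasl2 (1.3), Gbp2 (1.29), Ifi208 (1.25), Gbp5 (1.19), Zbp1 (1.05), Rsad2 (0.69), Irf7 (0.63), Ifit1 (0.54), Isg15 (0.46) and Ddx58 (0.35). Apol9b and Ifit3 share 52.3% and 51.2% of their words with other genes. The fall was also smaller with PIC for the protease inhibitor Serpinb2 (1.31) and the chemokine Ccl5 (0.62).

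A negative difference was called for 8 of 21 NF-κB and 3 of 24 immediate-early genes. Of the named genes, Malt1 (-0.64), Nfkbiz (-0.38), Tnfaip3 (-0.30), Nfkbia (-0.27), Egr1 (-0.47) and Zfp36 (-0.24) fell further with PIC. So did the cytokine Tnf (-0.58) and the enzyme Ptgs2 (-0.42). The same held for the integrin Itgav (-0.27). The elastase Mmp12 (-1.39) fell with PIC (log2FC -0.50) and rose with LPS (log2FC 0.89). The surface receptor Slamf7 (-0.93), the phosphodiesterase Pde4b (-0.75), the phosphatase Ppm1k (-0.75), the cochaperone Dnajb1 (-0.38) and the histone mRNA factor Slbp (-0.34) fell with PIC and did not pass the test with LPS. The pseudogene Gm10123 (-1.43) shares all of its words with other genes, so its reads cannot be assigned.

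Among genes that TBHQ raised in PIC cells, the difference was positive for Creg1 (0.22), Keap1 (0.31) and Cd200r1 (0.38) and negative for Prdx1 (-0.24) and Slc7a11 (-0.31).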

How the results depend on the processing

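Over 14 alternatives, 2215 values of 160 tested named genes kept their side of the threshold and direction in 2119 cases, lost the call in 95, gained it in 1 and reversed in 0, and 141 genes did so in every alternative. Higher genes numbered 3398 with total library size (1436 lower), and 63 and 8 at an FDR below 0.01 with a log2FC above 1 and 2, where lower genes numbered 170.0 and 33. The other settings on all libraries gave 1684 to 2201 higher and 2025 to 2306 lower genes. With any 1 library left out there were 1517 to 1841 higher and 1826 to 2116 lower genes. The replicate block, with the replicate number as a factor, gave 2201 and 2141. Replicates of the same number did not deviate together (correlations across 10388 genes of 0.00881, -0.0515 and 0.0632), and only PIC replicate 3 correlated best with its own number, so the samples share only a number. The difference between stimuli was called for 251 genes, 343 with DESeq2, 271 with RLE factors, 309 with total library size and 274 with the replicate block. Total library size shifted the median log2FC by 0.0687, and the cause of the uneven split under it was not tested. Of genes under 50 counts 8.45% were called, and the part of depth in this was not tested. Harvest after 4 h of TBHQ alone, the unstated harvest time of untreated cells and the unstated carrier control limit what the reference groups show.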
